A study of Mus musculus with 6 samples.

Results

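The chemokine window, chr11:83280000-83540000 in the mouse build mm9, covers 260 kb around the CC chemokine genes Ccl5, Ccl9, Ccl6, Ccl3 and Ccl4, and its T-bet ChIP-seq peaks were taken from all 3 deposited peak lists by position alone. It held 3 of the 8925 peaks of the series. All 3 came from 1 wild-type (WT) library. The T-bet knockout (labelled T-bet-KO) library and the other WT library had no peak there.

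The libraries came from induced regulatory T cells (iTreg cells) of Balb/c mice aged 4 to 10 weeks. Naive CD4+ cells were sorted as CD25-, CD62L high and CD44 low, activated with plate-bound antibodies to CD3 and CD28 at 10 µg/ml each, and cultured for 7 days with 33 ng/ml of TGF-β1 and 20 ng/ml of IL-2. Chromatin fixed for 20 minutes was precipitated with anti-T-bet rabbit serum, and 1 ChIP library was made from T-bet-KO cells and 2 from WT cells, all under the same culture labels. The KO library serves as the background of the serum. How the T-bet allele was inactivated is not stated in the sources used here. Cells made in culture by TGF-β1 are a model of regulatory T cells and are not cells taken from a tissue. The peak lists hold no expression values, so neither the loss of T-bet in the KO cells nor the regulatory identity of the cells was tested.

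CC chemokines are small secreted proteins that attract leukocytes by binding G protein-coupled receptors. Ccl3 (MIP-1α), Ccl4 (MIP-1β) and Ccl5 (RANTES) are released by activated T cells, natural killer cells and macrophages. Ccl3 and Ccl5 bind the receptor Ccr1. Ccl6 and Ccl9 are rodent chemokines that are made mainly by myeloid cells and act through Ccr1. T-bet is the T-box factor that directs T helper 1 differentiation, and a subset of regulatory T cells uses it to take up a T helper 1 pattern of chemokine receptors. T-box proteins recognise DNA with the core GGTGTGA.

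In the RefSeq gene table (assembly GRCm38.p6) the 5 chemokine genes follow each other in the order Ccl5, Ccl9, Ccl6, Ccl3 and Ccl4. The pseudogene Ccl16-ps lies between Ccl5 and Ccl9, and no other protein-coding gene lies between Ccl5 and Ccl4. The protein-coding neighbours are Heatr9 before Ccl5 and Wfdc17 after Ccl4. The peaks carry mm9 positions and an mm9 annotation was not used here, so each peak is given by its position and not by a gene, exon, intron or promoter.

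Promoters of 3 of the 5 genes were in the RefSeq sequence table, and the 250 bases before the annotated start are shown so that the sequence in which a T-box core would stand can be read. They are in GRCm38.p6, whose positions differ from those of mm9, at chr11:83578637-83578886 for Ccl9, chr11:83593088-83593337 for Ccl6 and chr11:83649379-83649628 for Ccl3. All 3 are on the minus strand and written 5′ to 3′. Capitals mark every stretch that differs from GGTGTGA, or from its reverse complement, by 1 base.
Ccl9: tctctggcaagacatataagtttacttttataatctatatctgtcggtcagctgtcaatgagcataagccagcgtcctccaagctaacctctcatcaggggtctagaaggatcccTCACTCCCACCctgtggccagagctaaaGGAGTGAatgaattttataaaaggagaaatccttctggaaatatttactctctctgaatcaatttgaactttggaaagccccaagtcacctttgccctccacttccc
Ccl6: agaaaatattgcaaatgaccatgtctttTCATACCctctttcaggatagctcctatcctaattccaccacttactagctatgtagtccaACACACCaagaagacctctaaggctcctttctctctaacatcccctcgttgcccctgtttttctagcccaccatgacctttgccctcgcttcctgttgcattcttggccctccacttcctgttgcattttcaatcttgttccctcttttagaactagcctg
Ccl3: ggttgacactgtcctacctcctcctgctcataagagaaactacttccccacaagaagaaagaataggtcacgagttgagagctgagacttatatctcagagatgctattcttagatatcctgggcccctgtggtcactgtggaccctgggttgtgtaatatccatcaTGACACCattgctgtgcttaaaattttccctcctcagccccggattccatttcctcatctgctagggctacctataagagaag

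None of these 3 stretches held GGTGTGA on either strand. The letters were present in 1095 of the 32851 promoters of the table, or 3.33%. A longer form of 8 letters with an A before the first G, each match of which is also a match of the shorter form, was present in 1.12% of the promoters and in none of these 3. With 1 mismatch allowed, Ccl9 had 3 matches, of which the first pair overlapped, Ccl6 had 2 and Ccl3 had 1. At least 1 such match was found in 51.6% of all promoters. Whether a peak falls in any of these stretches was not determined.

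The KO list had 0 of its 78 peaks in the window, the WT replicate 1 list 3 of 7996 and the WT replicate 2 list 0 of 851. The lists differ in length, the depth behind each is unknown and the threshold of the peak caller decides what they hold. An absence from a list therefore means that no peak passed that threshold, and it does not measure the signal at the site. No test across samples was run, since the lists give neither read counts nor depth.

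The first WT replicate 1 peak lay at chr11:83363696-83363878. It was 183 bp wide and had a score of 113, the peak caller's own value for the peak as the authors deposited it. It ranked 3787 in its list, and 47.3% of that list scored higher. This peak stood alone, with 89.9 kb to the next peak.

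The second peak lay at chr11:83453826-83454089, was 264 bp wide and scored 125, which was rank 3206 of the list. The third lay at chr11:83454840-83455130, was 291 bp wide and scored 179. It was the strongest and the widest of the 3, at rank 1731, with 21.6% of the list scoring higher. On chromosome 11, the 3 peaks ranked 300, 256 and 146 among 622 peaks.

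These last peaks formed a pair, with 750 bp between them, and together spanned 1305 bp. Having another peak within 1 kb was the case for 1394 of all 7996 WT replicate 1 peaks, or 17.4%. The 3 peaks covered 738 bp, or 0.284% of the window. Their median score was 125, against a median of 108 over the whole list. The window thus held peaks of middle to upper rank, and none of the strongest of its list, in which scores reached 3100.

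**Figure D1:**
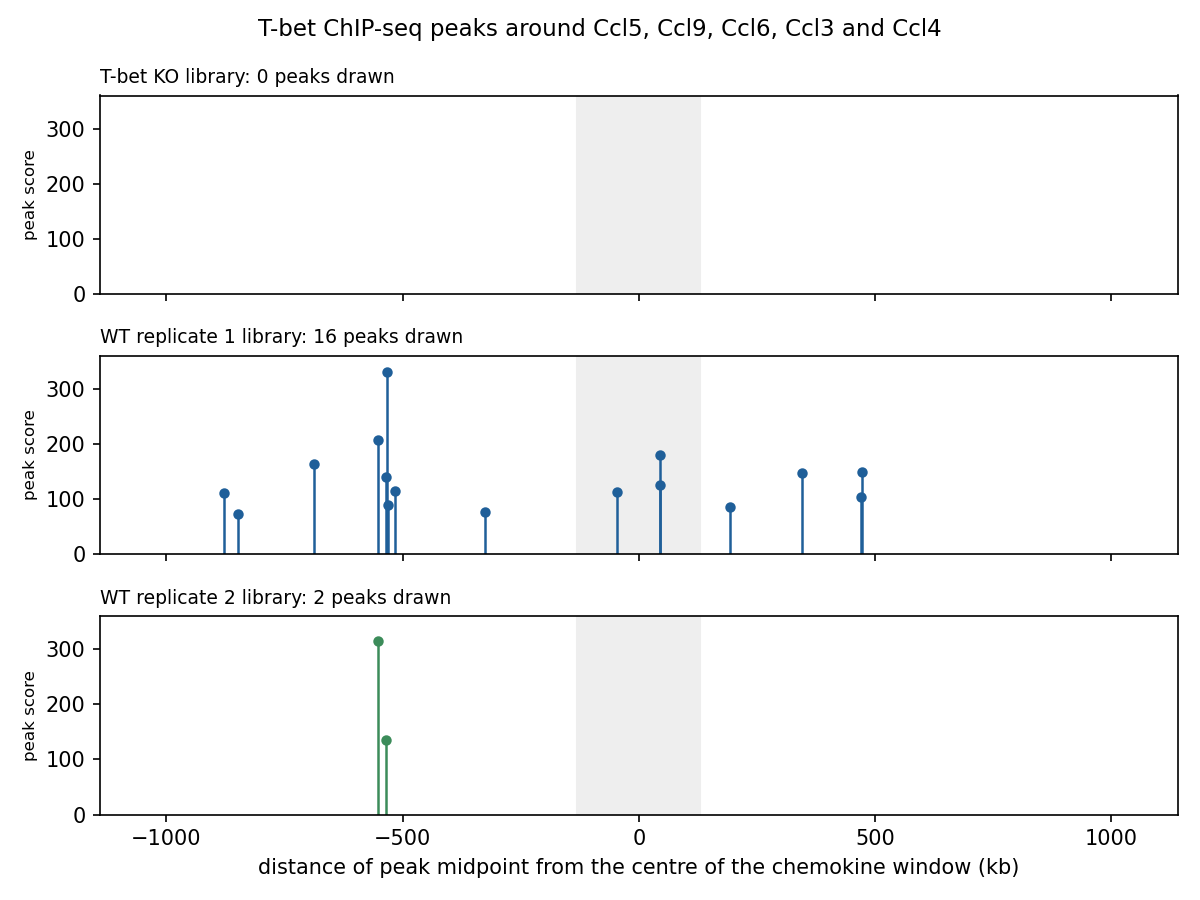
Peaks of the T-bet-KO library (top), WT replicate 1 (middle) and WT replicate 2 (bottom) within 1 Mb of the chemokine window, drawn as lines whose height is the score that the peak caller gave (no unit) against the distance in kb of the peak's midpoint from the centre of the window (grey). The KO panel is empty, WT replicate 1 has 16 peaks of which 3 fall in the window, and the 2 peaks of WT replicate 2 both lie to the left of the window; scores are not on a common scale between panels.

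Recurrence of these sites between the WT libraries was then examined. No KO peak met any of the 3 WT replicate 1 peaks, and over the whole list 0.550% were met by a KO peak, counting any shared base. WT replicate 2 likewise met 0 of the 3 (exact 95% interval 0 to 70.8%), against 9.50% of the whole replicate 1 list. That is 760 of 7996 peaks, and replicate 2 itself had only 851 peaks, so its length limits how large this share can be. The interval holds the share of the whole list, so the 3 peaks are not shown to recur less often than other peaks. Sites present in both WT lists and not met by the KO list made up 9.08% of the replicate 1 peaks and numbered 0 in the window. Intervals cover counting error over peaks only, and neighbouring peaks of 1 library are not independent.

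Recurrence was also counted for other peaks of the list that resembled the 3 in score, rank or position. Of the 2054 other WT replicate 1 peaks that scored between the weakest and the strongest of the 3, 127 met a replicate 2 peak, or 6.18% (5.18 to 7.31%). Among the 100 peaks closest in rank to the first peak, 50 on either side, replicate 2 met 7 (2.86 to 13.9%). It met 9 (4.20 to 16.4%) of those closest to the second peak and 15 (8.65 to 23.5%) of those closest to the third. Of the 350 other peaks in this score range with a neighbour within 1 kb, 30 were met, or 8.57% (5.86 to 12.0%). On chromosome 11 outside the window, the share met was 7.75% (5.77 to 10.1%) of 619 peaks.

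**Figure D2:**
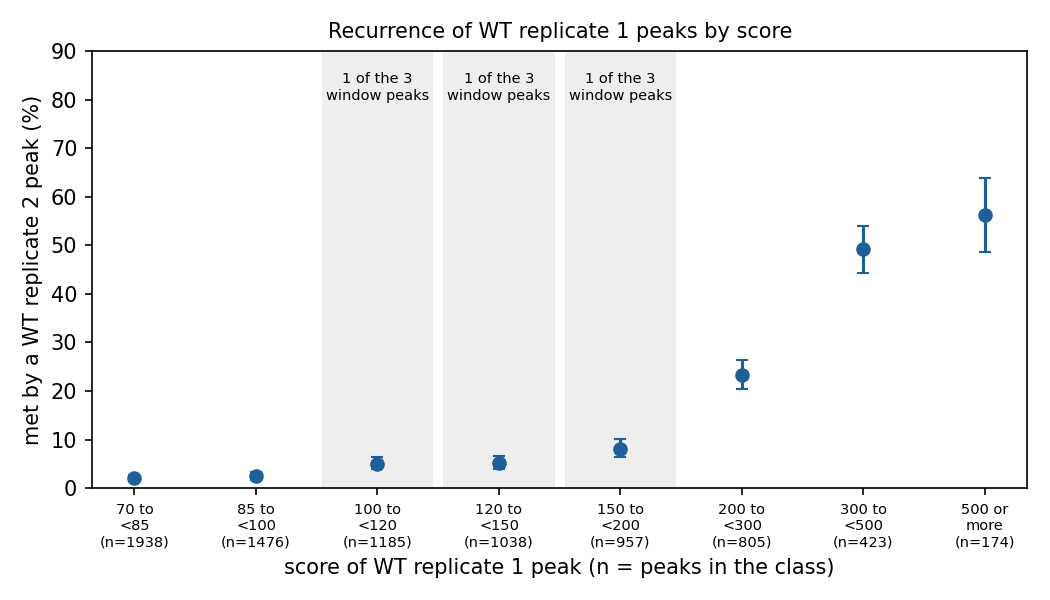
Percentage of WT replicate 1 peaks met by a WT replicate 2 peak (points, with exact 95% intervals) in 8 classes of the replicate 1 score, with the number of peaks under each class; grey bands mark the classes that hold the 3 window peaks. The marked classes recurred at 5.06%, 5.11% and 8.15%, against 49.2% for scores of 300 to 500 and 56.3% for scores of 500 or more.

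WT replicate 1 was the only library with peaks in the chemokine window. A leading number is shared by the deposited names of the KO and WT replicate 2 lists and differs for WT replicate 1. What it marks is not stated, and whatever that is cannot be told apart from the difference between the WT libraries here. The labels do not say whether the WT replicates came from separate mice or cultures.

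Within 1 Mb on each side of the window, WT replicate 1 had 13 peaks outside it, WT replicate 2 had 2 and the KO list 0. The nearest WT replicate 1 peak before the window, at chr11:83085078-83085229, ended 195 kb outside and scored 76.7. The nearest after the window, at chr11:83602829-83602951, began 62.8 kb outside and scored 85.35. Inside, the outermost peaks lay 83.7 kb from the start and 84.9 kb from the end of the window, so no peak stood close to an edge. The stretches of the same width directly before and after the window held 1 and 2 WT replicate 1 peaks, and no peak of the KO or WT replicate 2 lists.

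The nearest KO peaks on chromosome 11 lay 3434 kb before and 2855 kb after the window. The closest site found in both WT lists lay before it, at chr11:82873918-82874157 by the replicate 1 peak. It scored 139 in WT replicate 1, which is between those of the 2 paired window peaks, and 136 in WT replicate 2. A further shared site at chr11:82857411-82857758 scored 207 in WT replicate 1 and 315 in WT replicate 2. The strongest WT replicate 1 peak within 1 Mb, at chr11:82877559-82878011 with a score of 330, had no replicate 2 peak. Of the 13 WT replicate 1 peaks within 1 Mb outside the window, 2 met a replicate 2 peak. These are too few to show how recurrence followed the score among the neighbours.

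The count of the window was set against stretches of equal width. Over the span of chromosome 11 between its first and last WT replicate 1 peak there were 5.25 peaks per Mb, and in the window 11.5 per Mb, a density that rests on 3 peaks. When the genome was divided into tiles of 260 kb, 3258 tiles held at least 1 peak of any list. Of these, 1050 tiles, or 32.2%, had 3 or more WT replicate 1 peaks, and the median tile had 2. A count at least as high as that of the window was therefore common among occupied tiles. Tiles without a peak of any list were left out, so the share over all tiles of the genome would be lower. Among occupied tiles, 98.3% held no KO peak and 81.4% no WT replicate 2 peak.

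The pattern of the window, with 0 KO, 3 WT replicate 1 and 0 WT replicate 2 peaks, was found in 296 tiles, or 9.09% of the occupied tiles. Among the 380 tiles with exactly 3 WT replicate 1 peaks, these 296 made up 77.9%. Most tiles with exactly 3 WT replicate 1 peaks thus had no KO and no WT replicate 2 peak, as the chemokine window had none.

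**Figure D3:**
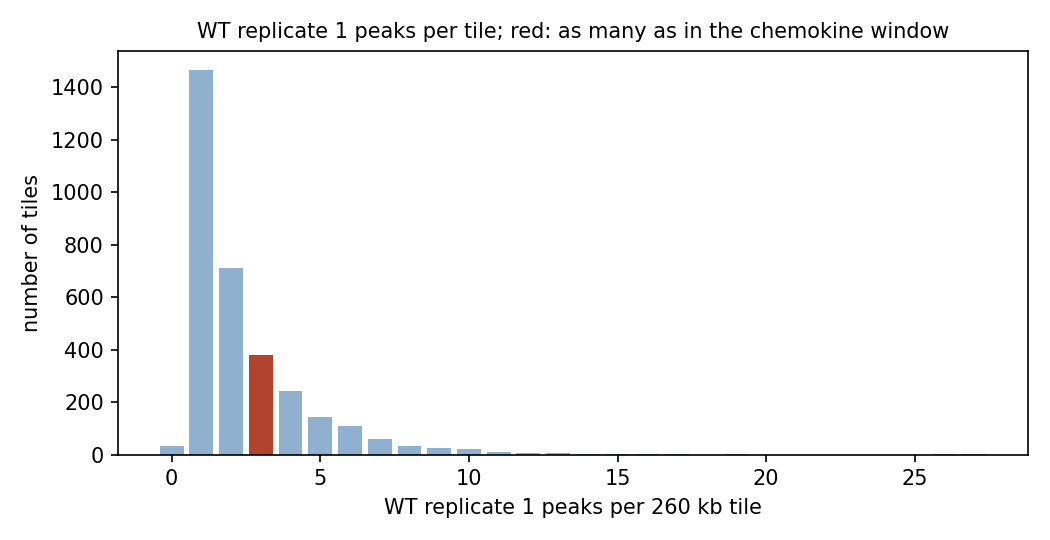
Number of 260 kb tiles (vertical axis) by the count of WT replicate 1 peaks they hold (horizontal axis), over the 3258 tiles with at least 1 peak of any list; the red bar marks tiles with 3, as many as the chemokine window. The red bar stands at 380 tiles, and 1050 tiles lie at or to the right of it.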

How the data were processed

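T-bet ChIP-seq peak lists of 3 libraries were used, 1 from T-bet-KO and 2 from WT iTreg cells; the 3 input libraries were not analysed here. Samples were grouped by their titles. CASAVA, Bowtie2 and MACS 1.4, with build mm9, are named in the submitters' processing notes, without settings or the control of each call. Per the labels' protocols, fragments of 150 to 350 bp were sequenced with single reads of 35 or 50 bp, without saying which library had which. Each list was deposited for 1 library, with chromosome, start, end, peak name and score. Scores, deposited by the authors on an unstated scale and not below 70.10 in any list, were used only within a list. Read depth is unknown, so it gives no precision for a single peak.

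Positions were converted to count from 1. Peaks overlapping the window by at least 1 bp were members, and all are described, as the rule for naming them asked. Peaks of 2 lists sharing at least 1 bp met each other. Shares carry exact (Clopper-Pearson) intervals at 95%. No test was run. Tiles were laid from the first base of each chromosome, and those without a peak of any list were not counted. The overlap code was checked on simulated peaks. Alternatives were a minimum score, stricter overlap, joined peaks, another window, shifted tiles, an extended or dropped KO filter, lists of equal length and a left-out WT replicate. The window and its genes were chosen with earlier results of these data known. Score classes, rank neighbours and the comparison with the surrounding 1 Mb were chosen after the values were seen. Scripts ran in Python 3.11.15 with scipy 1.17.1, numpy 2.4.6 and matplotlib 3.10.9.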

Additional observations from a re-analysis of the deposited data

How the results depend on the processing

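Of 35 alternatives to 7 values, 33 left the value within its limit. The limits were 1.5 times for counts, 1 SD of the 3 scores for the median score and its interval for the tile share. Many alternatives could not move a value, so the 33 do not measure robustness. A count of 0 cannot rise under a score minimum or stricter overlap. All 3 window peaks scored above the minimum of 100, and joining within 500 bp left the pair, 750 bp apart, separate. Widening by 50 kb stopped short of the nearest outside peak, at 62.8 kb. The KO and WT replicate 2 counts stayed at 0 under the score minimum of 100, joining, the midpoint rule and widening by 50 kb. The WT replicate 1 count stayed at 3 under these, except that joining peaks within 1 kb, an addition made after seeing the data, made the pair 1 site and gave 2 sites with a median score of 146. In another such addition, the WT replicate 1 list was shortened to its 851 highest scores, the length of the replicate 2 list, and the window then held 0 peaks, because all 3 rank below that. With 1 WT list left out, the peaks of the other WT list that no KO peak met were counted instead of shared sites. They numbered 0 without replicate 1 and 3 without replicate 2, so the content of the window rests on WT replicate 1 alone. Of the occupied tiles shifted by 130 kb, 32.1% had 3 or more WT replicate 1 peaks. The median replicate 2 score and the share of its peaks found in replicate 1 have no value, since replicate 2 has no peak in the window. No paired analysis was possible because the KO group has 1 library and no test was run. Unknown depth limits every statement on a missing peak.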
